A study of Mus musculus with 12 samples.

Results

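The cytosolic ribosomal proteins form the protein part of the ribosomes that translate nuclear mRNA. Their genes were taken from the deposited liver table by symbol: *Rpl* or *Rps* followed by digits and at most one of the letters a, x or l, together with *Rplp0*, *Rplp1*, *Rplp2* and *Rpsa*. Symbols ending in -ps (pseudogenes), *Rps6k* kinase genes and rows under 10 counts summed over the mice were left out. This gave 79 of the 48795 rows, 32 genes of the small subunit and 47 of the large subunit. Another 3 rows matched by name but fell under the minimum: *Rpl10l* with 0 counts in all 12 mice together, *Rpl3l* with 7 and *Rpl39l* with 9. These are the copies of *Rpl10*, *Rpl3* and *Rpl39* known for expression in testis or striated muscle.

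Livers came from 12 female mice aged 4 months on normal chow, age-matched littermates bred from *Nts*+/- parents. They carried the labels "NTS WT" (*Nts*+/+) or "NTS KO" (*Nts*-/-, deletion in the whole body), and either had free access to food or were fasted for 22 h. Each of the 4 groups had 3 mice, numbered 254, 257 and 323 for *Nts*+/+ on food, 265, 282 and 322 for *Nts*+/+ without food, 277, 303 and 319 for *Nts*-/- on food, and 284, 290 and 295 for *Nts*-/- without food. All carry the same batch year, 2015, and the strain background is not given in the sources used here. The gene *Nts* itself had 0 counts in all 6 libraries labelled *Nts*+/+ and between 4 and 46 counts in the 6 libraries labelled *Nts*-/-, against what the labels say. Directions by genotype below are therefore those of the libraries as labelled.

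Ribosomal proteins are made in nearly equal numbers, since each ribosome holds a single copy of most of them, and the stalk proteins P1 and P2 are the known exception. Many of their mRNAs begin with a cytosine followed by a run of pyrimidines, the terminal oligopyrimidine (TOP) motif, through which mTORC1 and the RNA-binding protein LARP1 set how much of each mRNA is translated and how stable it is. Nutrient supply acts on this pathway in liver, where ribosome number falls during food deprivation. RNA-seq of total RNA measures the mRNA level and not its translation, and in whole liver fewer cells of a type and less RNA per cell cannot be told apart.

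The sequence around the annotated start is shown first for genes picked from those named below, because it is where the TOP motif lies. Of the 79 genes, 57 matched a RefSeq promoter entry (GRCm38.p6, the build of the deposited table) and 22 had none. Each line runs 5′ to 3′ on the strand of the gene from 20 bases before the annotated start to 10 bases from it, and capitals mark a run of pyrimidines from the first cytosine that lies within 5 bases of the start and has at least 4 pyrimidines after it. A run can reach farther upstream than its capitals.
*Rps18*, chr17:33955656-33955685, minus strand: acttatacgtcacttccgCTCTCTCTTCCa
*Rps9*, chr7:3704021-3704050, plus strand: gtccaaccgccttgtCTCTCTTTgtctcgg
*Rps6*, chr4:86857358-86857387, minus strand: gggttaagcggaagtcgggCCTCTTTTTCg
*Rps27*, chr3:90213639-90213668, minus strand: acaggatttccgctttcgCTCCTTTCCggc
*Rpl35a*, chr16:33056462-33056491, plus strand: gcgcggcggggcttgCCTTCCTCTTTCCgc
*Rplp2*, chr7:141447631-141447660, plus strand: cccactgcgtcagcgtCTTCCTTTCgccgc
*Rpl4*, chr9:64173367-64173396, plus strand: agtctttccttttcctgtgggagcagccgg
*Rpl5*, chr5:107900508-107900537, plus strand: ctctttctcacgtcgcttgcgtgctggtgg
*Rpl27*, chr11:101442225-101442254, plus strand: ccggaacgctctgttcctgtctgctgctcg
The first 6 of these have such a cytosine and the last 3 do not, although *Rpl4* and *Rpl5* hold longer pyrimidine runs farther upstream in the window printed. The lines shown are thus richer in such runs than the 57 genes, of which 28 had one. *Rplp2* was called in no comparison. *Rpl6*, *Rpl9* and *Rps7*, called higher on average, have no such cytosine and are not shown. *Rpl35a* has more than 1 annotated start, and the entry with the run is the one printed.

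Over the 57 genes, 28 (49.1%) had such a cytosine within 5 bases of a start, against 21.2% of the 27025 genes with an entry and 23.8% of the 10108 tested genes with one. Requiring the annotated start base itself to be a cytosine with at least 4 pyrimidines after it, whether or not the run began before it, left 22.8% of the ribosomal protein genes and 3.01% of all genes. The letters TTCCGG, the core of ETS-family sites, were found on either strand between 250 bases before and 50 after the start in 56.1% of ribosomal protein genes and 30.3% of tested genes. The letters AAGATGGC, part of the YY1 motif, were found in 8.77% and 5.06%. TATAAA beginning between 40 and 20 bases before the start was found in 0 of the 57 genes and in 1.70% of tested genes. A match describes the letters in this window and not binding.

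All 79 genes passed the filter on low counts and were tested. The filter needs enough counts in only as many mice as the smallest group holds, so it does not show that each group passed. *Rpl6l* was the lowest gene, with 405 counts over the 12 mice. Depth was between 21999647 and 45273069 counts per mouse. The unit of level below is CPM, a gene's count over the library total scaled by TMM (a correction for library composition). Means are given with SD and n = 3 mice in each group, and tests are edgeR's quasi-likelihood test with Benjamini-Hochberg adjustment over all 13812 tested genes. Hepatocyte markers (*Alb*, *Apoa1*, *Ttr*, *Cyp2e1* and *Hnf4a*) summed to between 104300 and 139180 CPM in every library, so the labelled tissue carried its defining genes.

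Levels between genes were compared per kb of the canonical transcript. *Rplp1*, which encodes the stalk protein P1, had the highest at 572 CPM per kb over the 12 mice, followed by *Rpl10* (525), a protein of late large-subunit assembly, *Rps2* (503), *Rps18* (440) and *Rps6* (353). The lowest were *Rpl6l* (1.40) and *Rps4l* (7.46), paralogs of *Rpl6* and *Rps4x*, and then *Rpl37* (14.6), *Rps15a* (20.3) and *Rpl31* (23.6). The last 3 have canonical transcripts of 6111, 5182 and 4122 bases in the annotation used here, and 9 of the 79 genes have one over 3 kb. Per kb of coding sequence, an alternative added after these lengths were seen, *Rpl37* stood at 57, *Rps15a* at 66 and *Rpl31* at 69 in the order of 78 genes. *Rpl6l* has no coding sequence in that annotation. By coding length 4 of the 5 highest genes were the same, and *Rpl41*, named after its value was seen, came first at 1187 CPM per coding kb with a coding length of 138 bases. Apart from *Rpl6l* and *Rps4l*, the other 77 genes lay between 123 and 1187 CPM per coding kb with a median of 364.

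The 79 genes together took between 1.27% and 1.70% of all counts in a mouse. In fed livers labelled *Nts*+/+ the share was 1.58%, 1.52% and 1.41% (mice 254, 257 and 323), and in fasted ones 1.31%, 1.43% and 1.59% (265, 282 and 322). In fed livers labelled *Nts*-/- it was 1.27%, 1.32% and 1.70% (277, 303 and 319), and in fasted ones 1.56%, 1.45% and 1.57% (284, 290 and 295). The groups overlap in each of the comparisons, and both the lowest and the highest of the 12 mice are fed mice labelled *Nts*-/-.

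A score per mouse, gave each gene equal weight: each gene's log2 CPM was centred on its own mean of the 12 mice and the 79 centred values were averaged. With the label *Nts*+/+ the score averaged 0.03 ± 0.09 (SD, n = 3) on food and -0.01 ± 0.09 (SD, n = 3) without it. With the label *Nts*-/- the averages were -0.14 ± 0.28 (SD, n = 3) and 0.12 ± 0.10 (SD, n = 3). The wide fed group is a split between mice: the score was -0.34 in mouse 277 and -0.27 in mouse 303, the lowest of the 12, and 0.18 in mouse 319, close to the 0.18 of fasted mice 284 and 295. Levels in mice 277 and 303 were both below mouse 319 in 78 of the 79 genes, and both below all 3 fasted *Nts*-/- livers in 69. Mouse 319 lay above the lowest fasted *Nts*-/- liver in 69 genes and above all 3 of them in 33. These counts have no share over all tested genes beside them, and the mice were singled out from the same values. They do not show whether the split is particular to these genes.

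**Figure D1:**
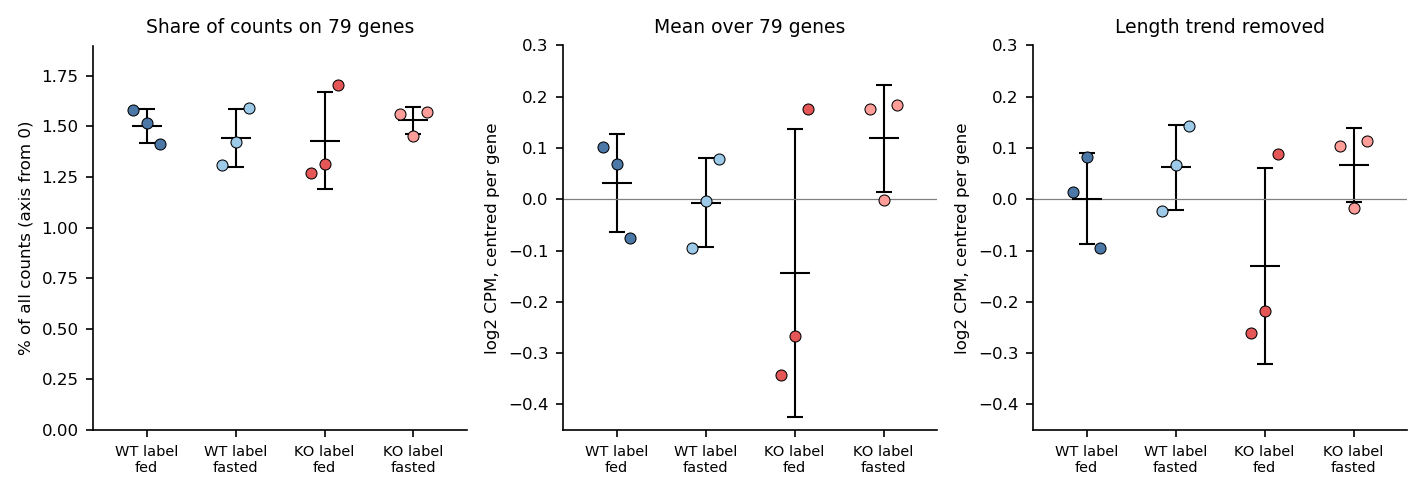
Share of all counts on the 79 genes (left, %, axis from 0), mean log2 CPM of the genes centred per gene (middle) and the same after the trend with transcript length was removed (right), by group label. Points are mice and bars are the mean ± SD of 3 mice. In fed livers labelled Nts-/- mice 277 and 303 are the 2 lowest of the 12 in both score panels, mouse 319 has the largest share of counts, and the groups overlap.

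The dependence of all genes on transcript length differed between these mice. The slope of centred log2 CPM on log2 transcript length over all tested genes was 0.09 in mouse 277 and 0.06 in mouse 303, against -0.07 in mouse 319, -0.05 in mouse 284 and -0.06 in mouse 295. Mouse 254, with a slope of -0.04 at a score of 0.10, and mouse 265, with 0.04 at -0.09, follow the same order. Not all mice do: mouse 323 had a slope of -0.02 at a score of -0.08, mouse 322 one of 0.02 at 0.08, and mouse 282 one of 0.04 at 0.00. The slope was 0.003 at a score of 0.07 in mouse 257 and -0.004 at -0.0015 in mouse 290. After this trend was removed the score was -0.26, -0.22 and 0.09 in the fed mice labelled *Nts*-/-, so the split remained with a smaller range. Mitochondrially encoded transcripts took between 2.24% and 5.81% of counts, and 2.70%, 3.89% and 3.98% in mice 277, 303 and 319. The part of RNA quality in these values was not tested.

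**Figure D2:**
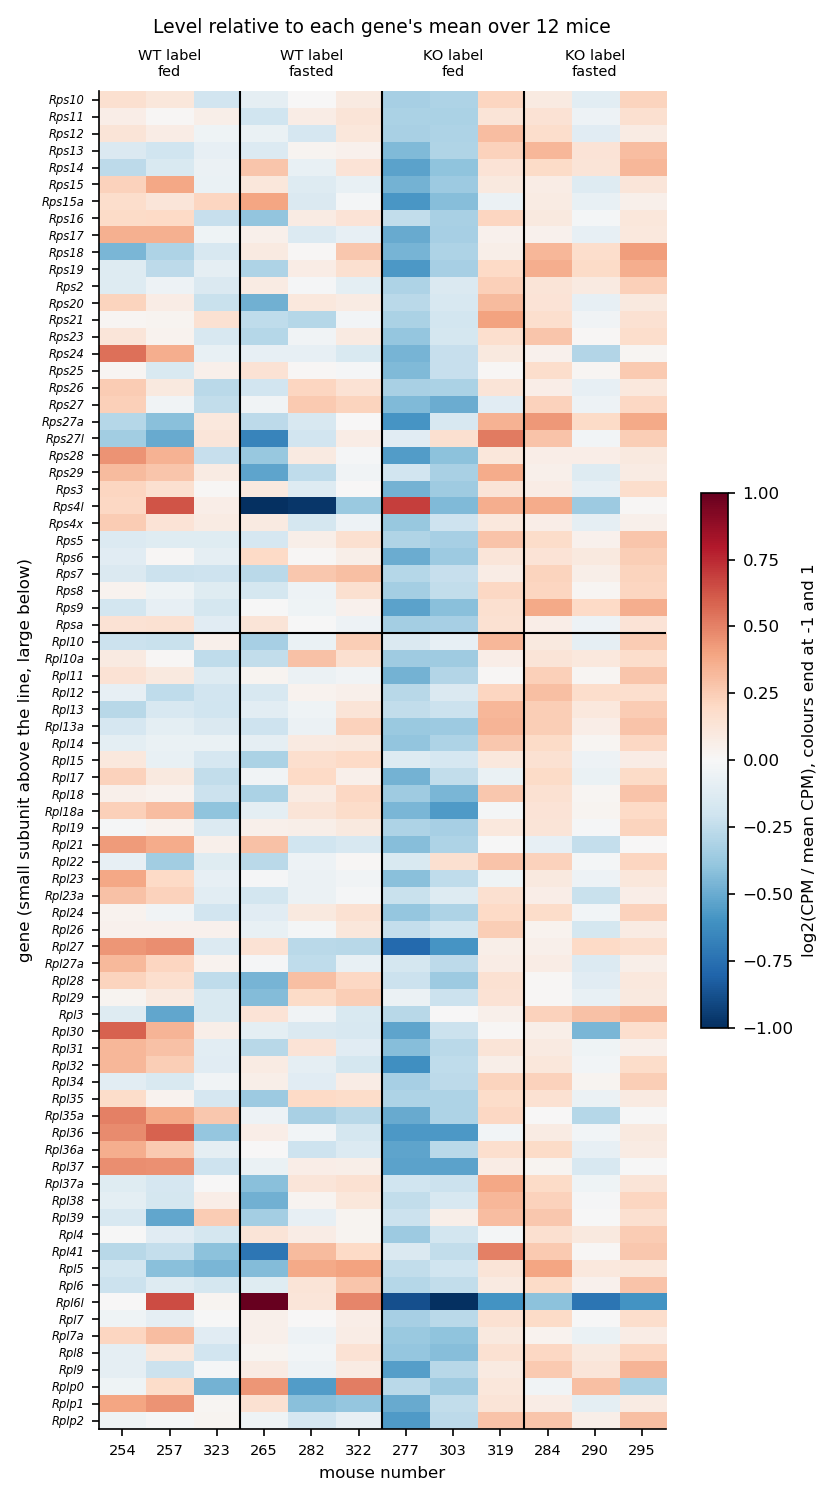
Level of each of the 79 genes in each of the 12 mice as log2 of CPM over the gene's mean (colour, ending at -1 and 1), with small-subunit genes above the horizontal line and large-subunit genes below. Mice 277 and 303 are below the mean in nearly every row, while Rpl6l is high in libraries labelled Nts+/+ and Rps4l is low in fasted mice 265 and 282.

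In livers labelled *Nts*+/+, the fasting changes of ribosomal protein mRNAs centred near 0, and the paralog *Rps4l* and *Rpl35a* were lower. The median log2 fold change of the 79 genes was 0.01, with 40 above 0 and 39 below, and that of all tested genes was 0.00. The balance of signs moved with gene length: with each library's trend with transcript length removed, 54 genes were above 0 and 25 below (median 0.10, all tested genes 0.03), and with that of coding length removed 56 and 23 (median 0.13, all tested genes 0.03). Of the 79 genes 0 rose at an adjusted *p* under 0.05, where 8.91% of all tested genes rose, and 2 (2.53%) fell, where 9.19% fell. At an unadjusted *p* under 0.05, edgeR's test gave 2 higher (2.53%) and 7 lower genes (8.86%), against 16.4% and 16.1% of all tested genes. The Wald test of DESeq2 called 1 gene higher, against 10.5% of the genes it tested. The values of 8 genes were higher in every fasted than in every fed mouse (10.1%, against 18.1% of all tested genes) and those of 7 were lower (8.86%, against 17.9%). The spread of fold changes was also narrower than in the transcriptome, with an interquartile range of 0.33 against 0.61. This is not particular to these genes. The range was 0.36 for mitochondrial ribosomal protein genes, 0.40 for proteasome subunit genes and 0.21 for other mRNAs with a TOP motif.

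*Rpl35a*, a large-subunit protein known from Diamond-Blackfan anaemia, and the paralog *Rps4l* were the 2 genes that fell. *Rpl35a* (ENSMUSG00000060636, chromosome 16 from 33056453 to 33060189) had 169, 156 and 144 CPM in fed mice and 115, 95.7 and 98.8 CPM in fasted mice labelled *Nts*+/+. All 3 fasted values are below all 3 fed values. Its log2 fold change was -0.60 ± 0.17 (SE, adjusted *p* = 0.0260). With 1 mouse left out it no longer passed without mouse 254 (adjusted *p* = 0.106), 257 (0.0637), 282 (0.112) or 322 (0.0687). *Rps4l* (ENSMUSG00000063171, chromosome 6 from 148354656 to 148355598) had 11.5, 15.3 and 10.4 CPM when fed and 2.51, 5.06 and 7.70 CPM when fasted, also without overlap. It fell by 1.26 on the log2 scale (SE 0.38, adjusted *p* = 0.0409), and left the threshold when any of mice 254, 257, 323, 265, 282, 319 or 295 was left out (adjusted *p* between 0.0533 and 0.126).

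The genes farthest above the group in these livers were *Rpl5*, *Rps18* and *Rpl6l* (log2 fold change 0.38 ± 0.31 SE, adjusted *p* = 0.425). *Rpl5*, which binds 5S RNA and the p53 regulator Mdm2, had 113, 95.9 and 93.3 CPM in fed mice and 95.2, 167 and 169 CPM in fasted mice, so that fasted mouse 265 lay among the fed mice and the other two far above them (log2 fold change 0.51 ± 0.20 SE, adjusted *p* = 0.0869). Without mouse 265 the log2 fold change was 0.75 (adjusted *p* = 0.00833). *Rplp1* lay far below the group, with 411, 428 and 317 CPM fed and 348, 234 and 239 CPM fasted (log2 fold change -0.49 ± 0.19 SE, adjusted *p* = 0.0921), and it too passed without mouse 265 (-0.69, adjusted *p* = 0.0320).

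Markers of other liver cells moved in the same comparison. The 5 Kupffer cell markers summed to between 454 and 496 CPM in fed and between 224 and 384 CPM in fasted livers labelled *Nts*+/+, with 2 of 5 called lower, and the 5 cholangiocyte markers to between 34.0 and 49.7 and between 13.7 and 26.3 CPM, with 1 of 4 tested called lower. Sinusoidal endothelium markers summed to between 126 and 187 CPM fed and between 112 and 118 CPM fasted with that label (1 of 5 called higher and 1 lower), and stellate cell markers to between 216 and 236 and between 179 and 204 CPM (1 of 5 lower). In livers labelled *Nts*-/- the Kupffer cell sums overlapped, from 299 to 391 CPM fed and from 293 to 346 fasted, with 0 of 5 called. Cholangiocyte sums there did not overlap, at 33.4 to 35.7 CPM fed and 15.1 to 29.6 CPM fasted (1 of 4 tested lower), nor did endothelial sums, at 152 to 168 and 107 to 131 CPM (2 of 5 lower). Stellate cell sums overlapped with 3 of 5 markers called lower. The lists of lymphocytes, erythroid cells, pancreas and skeletal muscle are set out with the limits. Their part in the ribosomal protein values was not tested.

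In livers labelled *Nts*-/-, fold changes of nearly all of the genes were above 0 with fasting and small. The median log2 fold change was 0.26, with 77 of 79 genes above 0, where the median of all tested genes was -0.01. With each library's trend with transcript length removed, 68 genes were above 0 and 11 below (median 0.19, all tested genes 0.03). With that of coding length removed, 77 were above 0 and 2 below (median 0.26, all tested genes 0.04). Few were called: 2 genes (2.53%) rose, against 7.70% of all tested genes, and 0 fell, against 9.14%. At an unadjusted *p* under 0.05, 18 genes (22.8%) were higher and 0 lower, against 15.0% higher and 16.8% lower of all tested genes. The values of 10 genes were higher in every fasted than in every fed mouse (12.7%, against 17.1% of all tested genes), and 0 were lower in every fasted mouse, against 18.1%. The 79 genes share their libraries, so 77 genes in one direction are not 77 separate observations.

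*Rps18* and *Rps9* were the genes called. *Rps18*, a protein of the small-subunit head that contacts the large subunit (ENSMUSG00000008668, chromosome 17 from 33951999 to 33956001), had 179, 199 and 256 CPM in fed mice 277, 303 and 319 and 311, 278 and 330 CPM in fasted mice 284, 290 and 295. Every fasted value is above every fed value, and the log2 fold change was 0.54 ± 0.15 (SE, adjusted *p* = 0.0264). *Rps9*, a protein near the mRNA entry site (ENSMUSG00000006333, chromosome 7 from 3703993 to 3706897), had 168, 183 and 273 CPM when fed and 318, 280 and 315 CPM when fasted. The groups again do not overlap, with mouse 319 just under the lowest fasted mouse (log2 fold change 0.55 ± 0.16 SE, adjusted *p* = 0.0316). *Rpl27*, the next farthest above the group, was at 0.53 ± 0.21 (SE, adjusted *p* = 0.107).

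These calls depend on single mice. Without mouse 319, 32 of the 79 genes (40.5%) were called higher, against 8.63% of the genes tested in that fit, and the median log2 fold change was 0.43. Without mouse 277, 303, 284 or 295, 0 were called, and the median was 0.16, 0.18, 0.22 and 0.23. Without mouse 290, 1 gene was called. In a fit of only the 6 mice labelled *Nts*-/-, 0 genes were called, and the Wald test of DESeq2 called 9 higher (11.4%, against 9.44% of the genes it tested).

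The genes farthest below the group in these livers were *Rps4l* (log2 fold change -0.24 ± 0.37 SE), *Rps27l* (-0.04 ± 0.21) and *Rps29* (0.02 ± 0.18). *Rps27l*, a paralog of *Rps27* known as a p53 target, had 87.5, 105 and 135 CPM fed and 115, 92.5 and 112 CPM fasted, and *Rps29* had 100.2, 91.3 and 148 CPM fed and 119, 105 and 121 CPM fasted. In both the fasted values lie inside the range of the fed ones, and the sign of *Rps29* and *Rps27l* changed with single mice or settings.

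**Figure D3:**
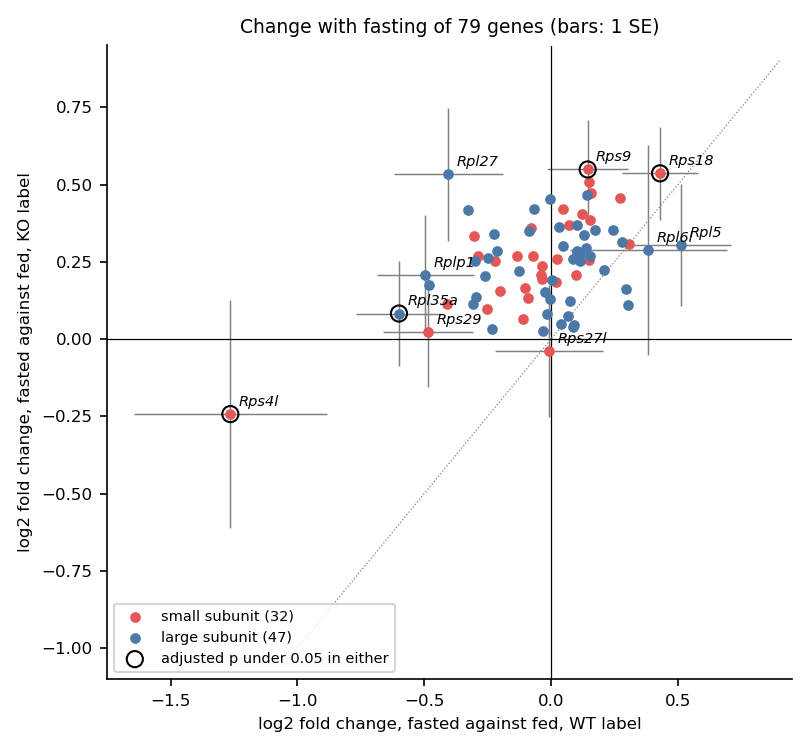
Log2 fold change of fasted against fed livers labelled Nts+/+ (horizontal) and labelled Nts-/- (vertical) for the 79 genes, with 1 SE bars on named genes, rings on genes with an adjusted p under 0.05 in either, and a dotted line of equal change. The points spread on both sides of 0 horizontally and lie above 0 vertically, except Rps4l and Rps27l.

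Averaged over both labels, 10 genes rose (12.7%, against 16.0% of all tested genes) and 1 fell (1.27%, against 16.8%). *Rps18* had the smallest *p*, with a log2 fold change of 0.48 ± 0.11 (SE, adjusted *p* = 0.00354). *Rps14*, of the small-subunit platform, rose by 0.37 ± 0.12 (SE, adjusted *p* = 0.0287), and *Rps9* by 0.35 ± 0.11 (SE, adjusted *p* = 0.0306). *Rpl4*, which lines the peptide exit tunnel, rose by 0.26 ± 0.09 (SE, adjusted *p* = 0.0356) and *Rpl6* by 0.30 ± 0.10 (SE, adjusted *p* = 0.0360). The others, named after their values were seen, were *Rpl3*, *Rpl5*, *Rpl9*, *Rps7* and *Rps27*, with log2 fold changes between 0.30 and 0.41. *Rps4l* fell by 0.75 on the log2 scale (SE 0.26, adjusted *p* = 0.0484). In all, 12 of the 79 genes were called in at least 1 of the 3 fasting comparisons and 0 in both labels separately. The median was 0.10, and the count of higher genes was between 1 (without mouse 277 or 303) and 30 (without mouse 319; 38.0%, against 15.9% of the genes tested in that fit) with 1 mouse left out. With the trend of transcript length removed 16 genes (20.3%) were called higher, against 19.0% of all tested genes, and with that of coding length removed 19 (24.1%), against 19.7%, so their share went from below the background to near or above it.

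*Rps18* also had no overlap between feeding states with the other label. In fed and fasted livers labelled *Nts*+/+ it had 180, 199 and 220 CPM and 262, 248 and 297 CPM, (log2 fold change 0.43 ± 0.15 SE, adjusted *p* = 0.0633). *Rps18* was the 1 gene that the Wald test of DESeq2 called higher there (adjusted *p* = 0.0316), and it also passed once the trends with length (0.0165) or GC content (0.0434) were removed. *Rps6*, the small-subunit protein that S6 kinases phosphorylate downstream of mTORC1, had 293, 319 and 298 CPM when fed and 363, 320 and 330 CPM when fasted with this label, where the lowest fasted mouse is just above the highest fed mouse (0.16 ± 0.15 SE, adjusted *p* = 0.516). In livers labelled *Nts*-/- *Rps6* had 225, 247 and 344 CPM when fed and 349, 339 and 377 CPM when fasted, with mouse 319 among the fasted mice (0.38 ± 0.15 SE, adjusted *p* = 0.0973).

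**Figure D4:**
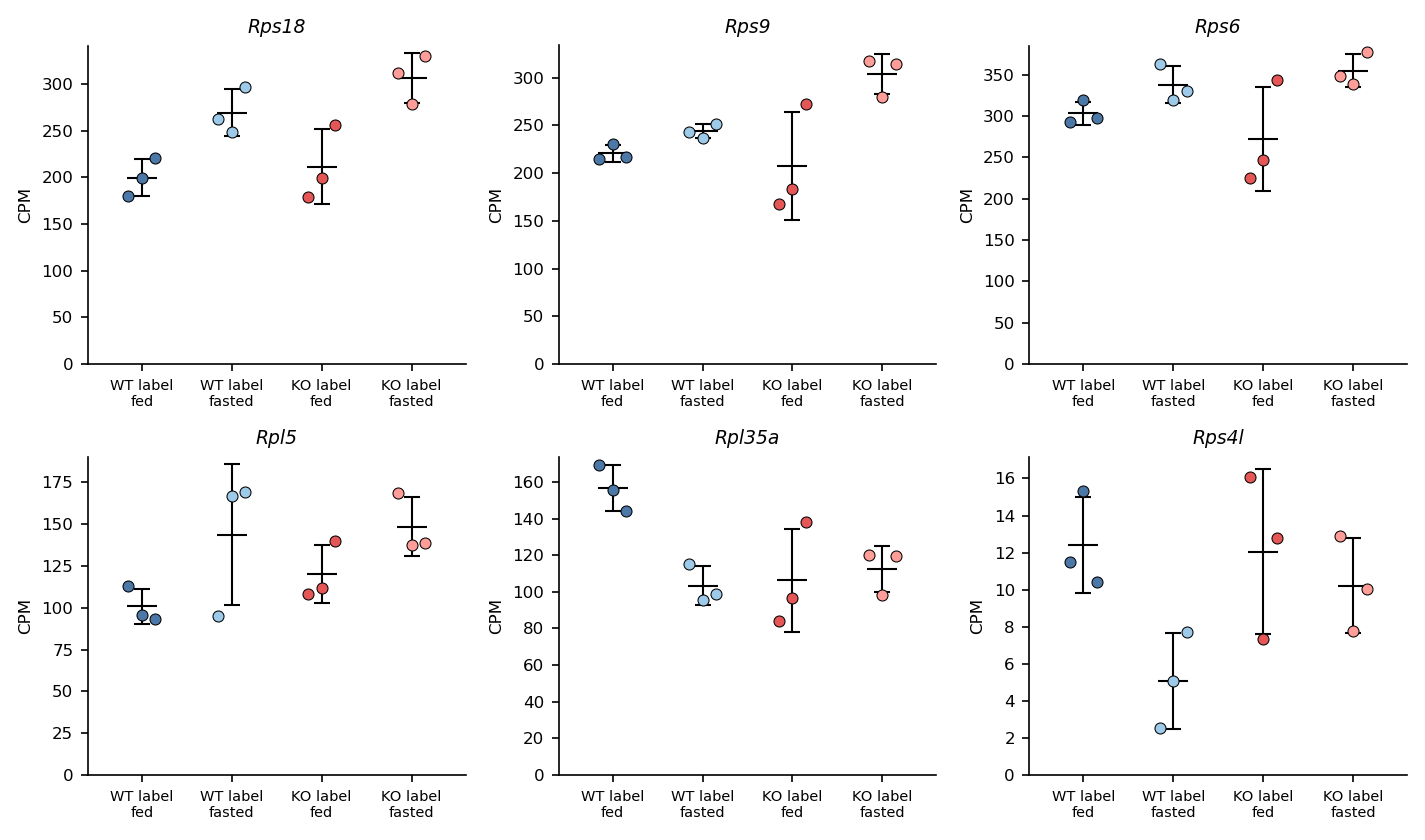
CPM of Rps18, Rps9, Rps6, Rpl5, Rpl35a and Rps4l in the 12 mice (points) by group label, with the mean ± SD of 3 mice and axes from 0. Rps18 is higher in all fasted than all fed mice of each label, Rpl35a and Rps4l are lower in fasted mice labelled Nts+/+, and fed mouse 319 is the highest of its group except for Rps4l.

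By subunit, the 32 small-subunit genes had a median log2 fold change of -0.04 in livers labelled *Nts*+/+ and 0.26 in those labelled *Nts*-/-, and the 47 large-subunit genes 0.04 and 0.26. The stalk, which recruits elongation factors, was not uniform. *Rplp0*, often used as a reference gene, ranged from 230 to 484 CPM within the fasted group labelled *Nts*+/+ alone (mean 391 ± 140, SD), against 114.8 ± 5.00 CPM (SD) for *Rplp2*. *Rpl12* at the stalk base had 125 ± 7.90 CPM (SD) in fed and 139 ± 11.3 CPM in fasted livers with that label, and 0 of the 4 stalk genes was called with either label. *Rpl11*, the partner of *Rpl5* on 5S RNA, had a log2 fold change of -0.07 ± 0.14 (SE) with the label *Nts*+/+ and 0.42 ± 0.14 with *Nts*-/-.

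Around the peptide exit tunnel, 8 genes were followed (*Rpl4*, *Rpl17*, *Rpl19*, *Rpl23a*, *Rpl26*, *Rpl31*, *Rpl35* and *Rpl39*). Their log2 fold changes ran from -0.26 (*Rpl31*) to 0.17 (*Rpl4*) in livers labelled *Nts*+/+ and from 0.03 (*Rpl26*) to 0.36 (*Rpl17*) in those labelled *Nts*-/-, with 0 called in either. *Rpl26* had nearly the same level in each group, at 188 ± 0.455, 184 ± 12.5, 178 ± 34.0 and 181 ± 16.6 CPM (SD) in the order *Nts*+/+ fed, fasted, *Nts*-/- fed, fasted. The 4 X-linked genes, *Rpl10*, *Rpl36a*, *Rpl39* and *Rps4x*, had log2 fold changes between -0.30 and 0.09 with the first label and between 0.05 and 0.25 with the second, with 0 called.

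Between the genotype labels, 0 of the 79 genes passed an adjusted *p* of 0.05 in edgeR's test or in the Wald test of DESeq2, in fed livers, in fasted livers or for the difference of the fasting response. In edgeR's test the share of all tested genes called was 0.00% in each. In fed livers the median was -0.13, with 61 genes below 0, where 6651 of all 13812 tested genes were below 0 (median 0.01). The 79 genes share their libraries here too. At an unadjusted *p* under 0.05, 23 genes (29.1%) were lower and 0 higher, where 6.34% of all tested genes passed in either direction. Mice 277 and 303 were both below all 3 fed livers labelled *Nts*+/+ in 61 genes, a count with no share over all tested genes beside it. The groups did not overlap in 5 genes, all lower with the label *Nts*-/- (6.33%, against 5.85% of all tested genes), and 0 were higher in each mouse, against 4.81%. Kupffer cell markers also differed in fed livers, with sums of 299 to 391 CPM below 454 to 496 CPM, all 5 fold changes below 0 (median -0.43) and 3 of 5 at an unadjusted *p* under 0.05. Their part in the ribosomal protein values was not tested. The median of the 79 genes was -0.03 without mouse 277, -0.07 without mouse 303 and -0.33 without mouse 319.

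In fasted livers the median was 0.11 with 68 genes above 0, where 6676 of all 13812 tested genes were above 0 (median -0.01). Of the 79 genes 3 (3.80%) had an unadjusted *p* under 0.05, against 4.96% of all tested genes. The groups did not overlap in 10 genes that were higher with the label *Nts*-/- (12.7%, against 5.29%) and in 1 that was lower (1.27%, against 6.88%). With the trend of transcript length removed the median was -0.01, and with the trend of coding length removed it was 0.02. The gene with the smallest *p* in both feeding states was *Rpl6l* (ENSMUSG00000091086, chromosome 10 from 111125851 to 111126738), on the chromosome that holds *Nts* (102481760 to 102490418). It had 1.22, 1.91 and 1.24 CPM in fed and 2.75, 1.32 and 1.71 CPM in fasted livers labelled *Nts*+/+, and 0.661, 0.543 and 0.806 CPM in fed and 0.916, 0.736 and 0.803 CPM in fasted livers labelled *Nts*-/-. All 6 values of the second label are below all 6 of the first, at 405 counts in all 12 mice together. Its paralog *Rpl6* had 93460 counts, and the deposited value of *Rpl6l* was not a whole number in any of the 12 mice. *Rpl6l* also has no coding sequence in the annotation used here. The log2 fold change was -1.12 in fed (unadjusted *p* = 0.00437) and -1.22 in fasted livers (unadjusted *p* = 0.00209), and neither passed adjustment.

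The fasting response differed between the labels by a median of 0.26 (label *Nts*-/- minus label *Nts*+/+), with 72 genes above 0. In this difference 6504 of all 13812 tested genes were above 0 (median -0.02). At an unadjusted *p* under 0.05 this difference gave 12 genes (15.2%), all above 0, against 4.80% of all tested genes, and 0 passed adjustment, so a different response of single ribosomal protein genes was not shown. With the trend of transcript length removed 2 genes (2.53%) were left, against 3.71% of all tested genes, and with that of coding length 5 (6.33%), against 4.21%. All 5 Kupffer cell markers were above 0 in this difference too (median 0.65, 2 of 5 at an unadjusted *p* under 0.05). So were all 6 lymphocyte markers (median 0.36) and 35 of 38 proteasome subunit genes (0.20). Also above 0 were 12 of 13 snoRNA host genes (0.34) and 17 of 21 other mRNAs with a TOP motif (0.14). Of mitochondrially encoded genes 13 of 15 were above 0 (0.32), and of mitochondrial ribosomal protein genes 55 of 77 (0.11). For ribosome biogenesis factors this was 24 of 34 (0.06). Below 0 were 16 of 20 genes of the mTORC1 and LARP1 pathway (-0.20), 4 of 5 stellate cell markers (-0.20) and all 3 erythroid markers tested (-0.29). The relation of these lists to the ribosomal protein values was not tested. The ribosomal protein gene with the smallest *p* was *Rpl27*, which had 68.5, 69.5 and 45.8 CPM in fed and 55.6, 41.8 and 41.5 CPM in fasted livers labelled *Nts*+/+, and 29.3, 33.4 and 52.5 CPM in fed and 52.2, 57.8 and 56.5 CPM in fasted livers labelled *Nts*-/- (difference 0.94 ± 0.30 SE, unadjusted *p* = 0.00850, adjusted *p* = 0.897). Its fed and fasted values overlap in each label. The median difference of the ribosomal protein genes was 0.43 without mouse 319 and 0.16 without mouse 277, and 0.09 with the length trend removed.

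Genes with short coding sequences had lower fold changes than those with long ones in livers labelled *Nts*+/+. Across the 78 genes with a coding sequence, Spearman's rho between coding length and the log2 fold change of fasting was 0.48 with that label and 0.21 with the label *Nts*-/-. These are descriptions across genes that share libraries. The 39 genes under the median coding length of 462 bases had a median of -0.09 with the label *Nts*+/+ (11 above 0) and the 39 others 0.10 (28 above 0). With the trend of coding length over all genes removed these were 0.04 and 0.19. With the label *Nts*-/- the medians were 0.20 and 0.27. Against full transcript length, rho was 0.10 and 0.04.

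**Figure D5:**
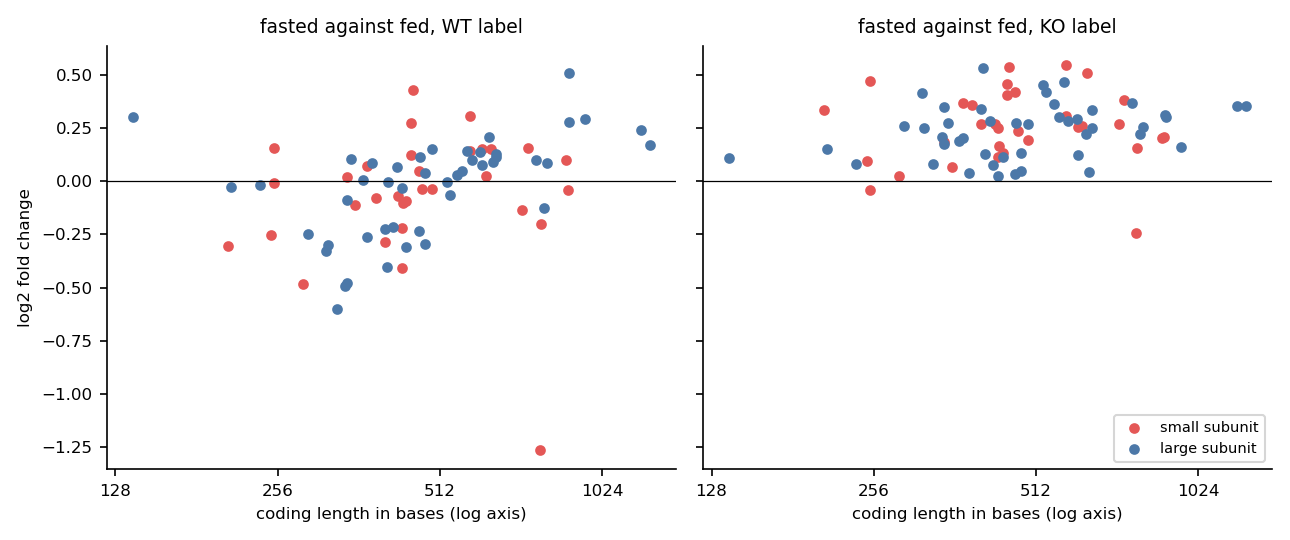
Log2 fold change of fasted against fed livers for the 78 genes with a coding sequence against its length in bases (log axis), in livers labelled Nts+/+ (left) and Nts-/- (right). On the left the shorter genes lie mostly below 0 and the longer ones mostly above (rho 0.48), while on the right nearly all points lie above 0 (rho 0.21).

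Genes that work with the ribosomal proteins were read from the same fits. For comparison with the counts below, 16.0% of all tested genes rose and 16.8% fell averaged over the labels. With the label *Nts*+/+ 8.91% rose and 9.19% fell, and with the label *Nts*-/- 7.70% and 9.14%. Of 34 ribosome biogenesis factors, averaged over the labels, 27 rose and 0 fell (median log2 fold change 0.42), with 12 called higher in livers labelled *Nts*+/+ and 11 in those labelled *Nts*-/-. They include *Polr1a*, the largest subunit of RNA polymerase I (0.86 ± 0.17 SE, adjusted *p* = 0.00405 with the label *Nts*+/+), *Utp20* (0.72 ± 0.15, adjusted *p* = 0.00485) and *Rrp12* (1.29 ± 0.27, adjusted *p* = 0.00697), both of pre-rRNA processing. With the label *Nts*-/- the smallest *p* values were those of *Taf1d* (0.79 ± 0.19 SE, adjusted *p* = 0.0109), *Ddx21* (0.67 ± 0.16, adjusted *p* = 0.0111) and *Gnl3* (0.76 ± 0.20, adjusted *p* = 0.0185).

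Other mRNAs with a TOP motif, a list of 21 translation factors and related genes, had 10 rises and 0 falls on average (median 0.24). *Npm1* of this list also stands among the biogenesis factors. *Eif3e* rose with both labels (0.57 ± 0.13 SE, adjusted *p* = 0.00801, and 0.49 ± 0.13, adjusted *p* = 0.0171), as did *Pabpc1*, the poly(A)-binding protein (0.49 ± 0.13, adjusted *p* = 0.0189, and 0.49 ± 0.13, adjusted *p* = 0.0194). *Hnrnpa1* rose by 0.93 ± 0.19 (SE, adjusted *p* = 0.00515) and *Nap1l1* by 0.51 ± 0.13 (adjusted *p* = 0.0158) with the label *Nts*-/-. Among ribosomal protein genes that the naming rule does not reach, 1 of 7 tested rose on average. It was *Fau*, named after its value was seen and counted among the 10 rises above as well, which encodes a ubiquitin-like protein fused to a small-subunit protein (0.47, adjusted *p* = 0.0149).

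Of 20 tested genes of the mTORC1 and LARP1 pathway, 7 rose and 3 fell on average, where 16.0% of all tested genes rose and 16.8% fell. *Mtor* (0.71 ± 0.14 SE, adjusted *p* = 0.00395), *Larp4* (0.69 ± 0.16, adjusted *p* = 0.0105) and *Eif4e* (0.45 ± 0.11, adjusted *p* = 0.0143) rose with the label *Nts*+/+. With the label *Nts*-/- *Eif4e* rose (0.36 ± 0.11, adjusted *p* = 0.0421) and *Sesn1*, an amino acid sensor upstream of mTORC1, fell by 0.75 on the log2 scale (SE 0.15, adjusted *p* = 0.00515). *Larp1* itself was at 0.05 ± 0.13 and -0.21 ± 0.13 (SE) and was not called. Of 13 tested snoRNA host genes 4 rose and 0 fell on average, *Snhg3* with both labels (0.96 ± 0.28 SE, adjusted *p* = 0.0301, and 1.44 ± 0.30, adjusted *p* = 0.00555) and *Snhg12* with the label *Nts*-/- (0.75 ± 0.24, adjusted *p* = 0.0477). Of 13 genes of ribosome hibernation and quality control 4 rose and 1 fell. *Abce1*, which splits ribosomes for reuse, rose with the label *Nts*+/+ (0.51 ± 0.11 SE, adjusted *p* = 0.00816), and *Eef2k*, the kinase that slows elongation, fell by 0.91 (SE 0.20, adjusted *p* = 0.00891) with the label *Nts*-/-.

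Other multi-subunit complexes are set beside these counts, where again 16.0% of all tested genes rose and 16.8% fell on average. Of 38 tested proteasome subunit genes, 29 rose and 3 fell on average (median 0.39), with medians of 0.32 and 0.48 by label. The 77 mitochondrial ribosomal protein genes had 14 rises and 7 falls (median 0.08), with medians of 0.00 and 0.10. The median of the 79 cytosolic genes was 0.10. The score of the mitochondrial set was -0.18 and -0.13 in mice 277 and 303 and 0.16 in mouse 319, and that of the other TOP mRNAs -0.31, -0.27 and 0.00. That of the proteasome set was -0.245, -0.366 and -0.0874 in the same mice. In fasted mice labelled *Nts*-/- the proteasome score was between 0.168 and 0.236, so mouse 319 lay below them there.

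The 28 genes with a pyrimidine run within 5 bases of the start had a median fasting change of 0.00 with the label *Nts*+/+ and 0.21 with *Nts*-/-, and the 29 with an entry and no run 0.07 and 0.27. This difference was not tested. On average 3 of the 28 genes with a run were called higher, among them *Rps18* and *Rps9*, whose runs are printed above. Of the 29 without a run 5 were, among them *Rpl4* and *Rpl5*, where 16.0% of all tested genes rose.

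Reads of these genes are hard to assign, since the genome holds many processed copies. Of the values above 0 for the 79 genes 86.7% were not whole numbers, against 21.3% for all other genes, a form that the RSEM estimate takes where reads match more than 1 gene or transcript. The 273 -ps rows named for 59 of the 79 genes held 1.36% as many counts as the genes themselves, but 64.6% for *Rpl27*, 28.9% for *Rpl31*, 12.4% for *Rpl15* and 10.2% for *Rps23* (those over 10%), 9.60% for *Rps6*, 0.594% for *Rpl35a*, 0.110% for *Rps18* and 0 for *Rps9* and *Rps4l*. *Rps9*, which has no such row, also had values that were not whole in all 12 mice, so these shares do not measure how well a level is known. Adding these rows to their parent genes left 0 higher and 2 lower with the label *Nts*+/+, 2 higher with *Nts*-/- and 11 higher on average. Shares over all tested genes in that setting are not given here.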

How the data were processed

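The authors deposited 1 table of RSEM expected counts for 48795 genes, unscaled between mice and not always whole, with GRCm38 positions, after Trimmomatic (both from the submitters' processing notes). Tool versions and an aligner are not given in the sources used here. Expected counts were rounded, and 13812 genes passed filterByExpr of edgeR 4.0.16 (R 4.3.3), which normalized with TMM and fitted 1 mean per group over all 12 mice (robust quasi-likelihood, Benjamini-Hochberg over all tested genes, adjusted *p* under 0.05). Each library is a separate mouse, with 21999647 to 45273069 counts.

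Scores used log2 CPM with a prior count of 2. Lengths came from the canonical transcripts of GENCODE vM39, matched by Ensembl identifier, and no coordinate of that build is printed. Promoter windows came from RefSeq. Alternatives were DESeq2 1.42.0 (Wald test), RLE or upper-quartile factors, other count filters, only the mice compared, removal of trends with length or GC content (5 spline degrees of freedom), no mitochondrially encoded genes, the 79 genes left out of TMM, -ps rows added, and leaving out each mouse. Coding length as the length measure was added after the data were seen. The genes and lists were chosen with earlier results of these data known. Genes named are the 5 highest and 5 lowest per length, up to 5 called higher and lower per fasting comparison, the 3 farthest from the median each way, all of the stalk, 5S, exit tunnel, paralog and X-linked groups, the smallest *p* of each genotype comparison, *Rps6*, and up to 3 called genes per other list. The steps were tested on simulated data. Protein sequences were not used here.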

Additional observations from a re-analysis of the deposited data

How the results depend on the processing

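Leaving out each mouse in turn, the genes called higher with fasting numbered 0 to 2 with the label *Nts*+/+, 0 to 32 with the label *Nts*-/- and 1 to 30 on average, those called lower 0 to 4, 0 to 0 and 0 to 1, and the medians were -0.06 to 0.09, 0.16 to 0.43 and 0.06 to 0.19. Without mouse 319, which gave the 32 and the 30, 8.63% and 15.9% of all tested genes rose. The genotype medians were -0.328 to -0.0335 in fed livers, 0.07 to 0.16 in fasted livers and 0.16 to 0.43 for the difference, with 0 genes called in each. Genes called higher with the label *Nts*+/+ were 2 with the trend of transcript length removed and 1 with that of coding length or GC content removed or in DESeq2, and those called lower were 1 with no count filter, with only the mice compared or with the transcript length trend removed. With the label *Nts*-/- the count of higher genes was 4 with RLE normalization or the GC trend removed, 9 with the coding length trend removed or in DESeq2, and 0 with only the mice compared. With that label 1416 of all 13812 tested genes rose with the coding length trend removed, and 9.44% of those tested in DESeq2. On average the count of higher genes was 2 with upper-quartile normalization, 6 with no count filter, 16 with the transcript length trend and 19 with the coding length trend removed, and the count of lower genes was 0 with RLE normalization, no count filter or any of the 3 trends removed. On average 19.0% and 19.7% of all tested genes rose with those 2 length trends removed. The other counts by setting in this section are given without such a share. The median difference of the fasting response was 0.0926 with the transcript length trend removed, and 22.8% had a cytosine with at least 4 pyrimidines after it at the start base itself. The cause of these shifts was not tested. The log2 fold change of *Rps29* with the label *Nts*-/- was -0.0097 with upper-quartile normalization, -0.107 with the length trend removed and between -0.10 and 0.27 with 1 mouse left out, that of *Rps27l* between -0.18 and 0.14 and that of *Rps4l* between -0.490 and 0.0264. Over all pairs of a median, share, score or count and a setting other than leaving out a mouse, those above included, 205 stayed within their limits and 23 moved. The median level per kb was 164 CPM by transcript and 364 by coding length. Each library is a separate mouse, and the sources used here do not give the litter of each mouse, so no pairing by litter was possible.

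Marker sums over all 12 mice ran from 5.21 to 9.27 CPM for lymphocytes, 107 to 187 for sinusoidal endothelium, 179 to 255.7 for stellate cells, 150 to 394 for erythroid cells, 3.06 to 13.7 for pancreas and 0 to 0.0403 for skeletal muscle, with 2 of 5 pancreas and 2 of 4 muscle markers at 0 in every library. Averaged over the labels, fasting called 0 of 6 lymphocyte markers, 1 higher and 3 lower of 5 for endothelium, 3 lower of 5 for stellate cells, 2 lower of 5 for Kupffer cells, 1 lower of 4 tested for cholangiocytes, 1 lower of 3 tested for erythroid cells, 1 lower of 1 tested for pancreas and 2 higher and 1 lower of 5 for hepatocytes, and 0 muscle markers were tested. The biological coefficient of variation over all genes was 0.202.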
